A study of Mus musculus with 24 samples.

Results

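The 7 genes of guanylin and cyclic GMP signalling, Gucy2c, Guca2a, Guca2b, Prkg2, Cftr, Slc9a3 and Pde5a, held 75 of the 61454 genomic regions in which Cdx2 was called in mouse colon organoids. These genes were picked by name from 21938 protein-coding genes, with earlier results of these data known. Their regions were chosen by a called peak whose summit lay in the gene body or up to 50 kb to either side, so the number of regions is a description of that choice. Cdx2 was mapped by ChIPmentation, a chromatin immunoprecipitation in which a transposase adds the sequencing adapters on the beads, and each library gave 1 list of peaks. Proximal colon and distal colon organoids had been grown from 3 mice. The genotype shared by all groups was heterozygous for a Cre-inducible BRAFV600E allele and for a tdTomato reporter, and no Cre activation is named in the labels. The proximal WENR-plus and distal WENR-plus groups had been kept for 4 months in medium with Wnt3a, EGF, Noggin and R-spondin. The proximal WENR-minus and distal WENR-minus groups came from the same 4 months of culture, then 2 days in that medium after plating and 3 days without the factors. Each of the 4 groups held 3 libraries, and the 12 input libraries entered only through the peak calls.

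Guanylin (Guca2a) and uroguanylin (Guca2b) are small peptides that intestinal epithelial cells secrete into the lumen. They bind the receptor guanylate cyclase C (Gucy2c), which makes cyclic GMP inside the cell. The cyclic GMP activates the protein kinase Prkg2, which phosphorylates and opens the chloride channel Cftr, while the sodium-proton exchanger Slc9a3 is inhibited, so that salt and water are moved to the lumen. Pde5a hydrolyses cyclic GMP and ends the signal. Cdx2 is a homeobox protein that drives gene programmes of intestinal epithelial cells.

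Of the 75 regions, 5 were called in all 12 libraries, and these are the sequences to which the comparisons below refer. Each region is named by its gene and the distance of its summit from the 5′ end of that gene, with a minus sign for upstream and a plus sign for downstream. The 101 bases centred on the median summit are given for the plus strand of GRCm38, the assembly also called mm10, and capitals mark a Cdx2 motif (TTTATGG or TTTATGA or TTTATTG or TTTATTA on either strand).
Gucy2c −0.133 kb, chr6:136781848-136781948: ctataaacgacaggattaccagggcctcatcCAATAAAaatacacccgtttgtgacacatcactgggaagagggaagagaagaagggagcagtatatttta
Prkg2 +26.7 kb, chr5:99010606-99010706: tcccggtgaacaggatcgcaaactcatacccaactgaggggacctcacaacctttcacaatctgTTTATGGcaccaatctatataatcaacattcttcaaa
Prkg2 +90.9 kb, chr5:98946437-98946537: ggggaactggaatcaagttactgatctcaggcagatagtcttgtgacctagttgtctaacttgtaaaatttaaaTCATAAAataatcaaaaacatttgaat
Cftr +53.7 kb, chr6:18224301-18224401: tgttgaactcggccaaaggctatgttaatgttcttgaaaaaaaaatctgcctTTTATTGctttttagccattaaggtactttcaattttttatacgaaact
Cftr +78.0 kb, chr6:18248605-18248705: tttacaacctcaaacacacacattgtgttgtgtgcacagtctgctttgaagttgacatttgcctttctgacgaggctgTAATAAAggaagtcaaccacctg
All 5 windows held a Cdx2 motif, against 73.1% of the 2079 regions called in all 12 libraries anywhere in the genome. The motif lay 19 bp to the left of the summit in the Gucy2c window and 2 to 28 bp to the right of it in the other windows. At the summits of the single libraries, a Cdx2 motif, which need not be the printed copy, was within 50 bp in all 12 libraries for both Prkg2 regions and Cftr +53.7 kb. It was within 50 bp in 10 for Gucy2c and in 6 for Cftr +78.0 kb. The centre of the Cftr +78.0 kb window is a median over peaks of 2 summits, and the first summit has its median at −74 bp from it. Among all 75 regions, 42 (56.0%, 95% Wilson interval 44.7 to 66.7%) held it, a share close to the 60.4% of all 61454 regions.

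The lists differed in length, and the number of regions found at the 7 genes moved with it. The proximal lists held 11409 to 42192 peaks and found 29 to 50 of the 75 regions, while the distal lists held 5608 to 21040 peaks and found 10 to 22. The lists give no read totals and the library totals that the study states were not used here, so list length stands beside every count of libraries below. Of the 75 regions, 62 (82.7%) were called in more proximal than distal libraries, against 80.6% of all regions. When each list was cut to its 5608 peaks of highest −log10 p, 31 regions were left, of which 17 (54.8%) were called more often in proximal, 6 (19.4%) more often in distal and 8 equally often. Of the 15142 regions left over the genome, 37.3% were called more often in proximal and 43.0% more often in distal.

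**Figure D1:**
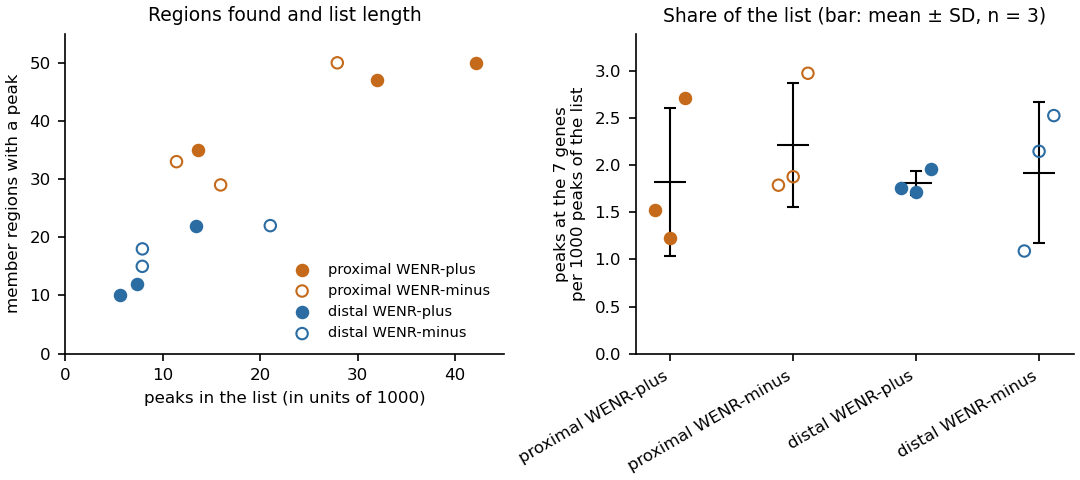
Left, the number of the 75 regions with a peak in a library (vertical axis) against the number of peaks in its list (horizontal axis, in units of 1000 peaks); right, peaks at the 7 genes per 1000 peaks of the list for each library, with the group mean ± SD (n = 3). Proximal libraries (orange) lie above distal libraries (blue) on the left, between 29 and 50 regions against 10 to 22, while the shares on the right overlap between all 4 groups.

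As a share of the list, the 7 genes did not differ detectably between sites or media. Per 1000 peaks, the proximal WENR-plus lists held 1.53, 1.23 and 2.72 peaks at the 7 genes and the proximal WENR-minus lists 1.79, 1.88 and 2.98. The distal WENR-plus lists held 1.76, 1.72 and 1.96 and the distal WENR-minus lists 1.09, 2.15 and 2.53. Replicate 3 was the highest of each group, and the groups overlapped. Averaged over the media of a line, meaning the organoids with 1 replicate number from 1 site, the share was 2.02 ± 0.719 per 1000 in proximal and 1.87 ± 0.413 in distal (SD, n = 3 lines each), a difference of 0.153 (two-sided exact permutation test, p = 0.8; the smallest p that 3 against 3 allows is 0.1). Without replicate 3 the difference was −0.0734. The share was 1.82 ± 0.505 in WENR-plus and 2.07 ± 0.65 in WENR-minus (SD, n = 6), a difference of −0.25 per 1000 (two-sided exact permutation test within sites, p = 0.48; smallest p 0.005).

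The regions were spread unevenly over the genes. Cftr had 26, Pde5a 15, Prkg2 14, Gucy2c 9 and Slc9a3 7, and the neighbouring genes Guca2a and Guca2b had 3 each, of which 2 were shared. Per 100 kb of gene and flanks, Cftr held 10.3 regions, more than 99.5% of protein-coding genes, and the median gene held 1.88. Prkg2 held 6.74, Pde5a 6.51, Gucy2c 4.88, Slc9a3 4.73, Guca2a 2.95 and Guca2b 2.93. By position, 35 regions lay in introns, 20 upstream, 19 downstream and 1 in a UTR, and 53 had a start site of a member as the nearest protein-coding start. Of the 75, 25 (33.3%) were called in 1 library, against 42.2% of all regions, and the 5 called in all 12 were 6.67%, against 3.38%. The regions nearest to the 50 kb limit were called in 1 library each, 48.2 kb from Guca2a inside it and 50.2 kb from Cftr outside it.

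**Figure D2:**
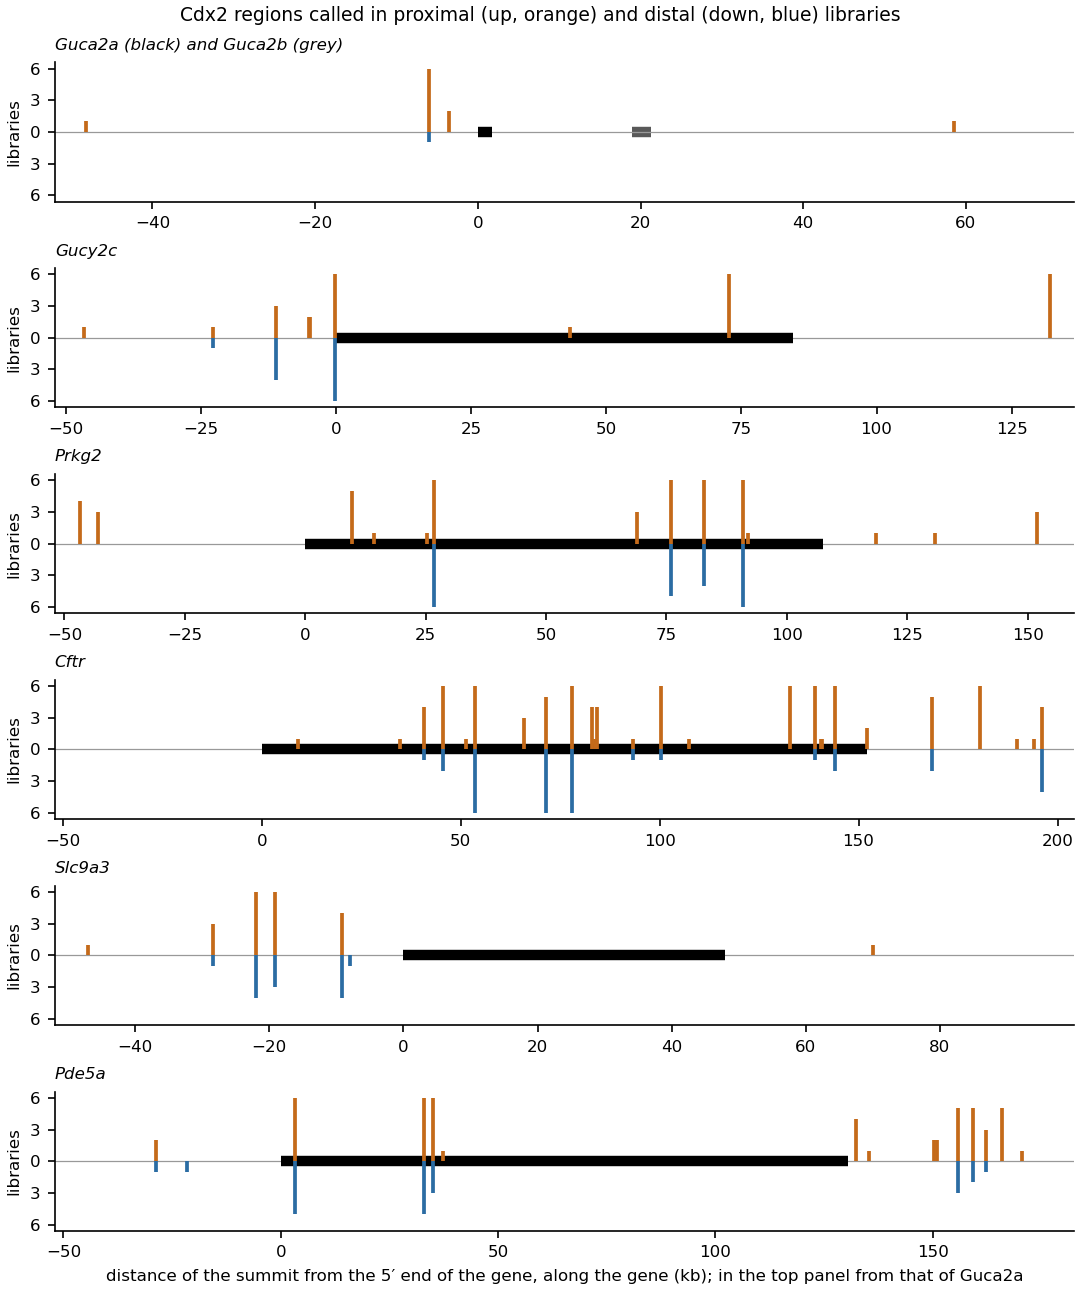
Position of the Cdx2 regions along the 7 genes, as the distance of the summit from the gene's 5′ end in kb (horizontal axis; bars on the zero line are gene bodies), with the number of proximal libraries upward in orange and of distal libraries downward in blue (vertical axis, of 6 each). Bars that reach 6 in both directions are the 5 regions called in all 12 libraries, 1 at the start of Gucy2c, 2 inside Prkg2 and 2 inside Cftr.

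Among the members, 3 of 7 (Gucy2c, Prkg2 and Cftr) had a region called in all 12 libraries, against 12.9% of protein-coding genes. Within 3 kb of an annotated start site, 4 of 7 (Gucy2c, Prkg2, Pde5a and Cftr) had a region in any library, against 22.7%, and 2 of 7 (Gucy2c and Prkg2) had a region in all 12, against 1.34%. Long genes offer more sequence and more start sites, and these shares were not matched for length. For Prkg2, Pde5a and Cftr the start sites concerned belong to transcripts that begin inside the gene. At the outermost 5′ end of the gene, only Gucy2c had a region within 3 kb.

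The ligand genes lie side by side and are transcribed towards each other on chromosome 4 (Guca2a, chr4:119637704-119639471, plus strand; Guca2b, chr4:119656607-119658954, minus strand). Neither had a region within 3 kb of a start site in any library. The Guca2a −6.02 kb region, inside the windows of both ligand genes, was the one called in most libraries, 7 of 12. Its fold, the ratio of the pileup at the summit to the local background of the input, was 8.24, 5.96 and 10.2 in proximal WENR-plus and 11.3, 6.72 and 7.40 in proximal WENR-minus. Of the 6 distal libraries it was called in 1, replicate 3 of distal WENR-minus, with a fold of 5.59. All proximal values were above this one. The Guca2a −3.49 kb region, the nearest to a start site of both ligand genes (24.6 kb for Guca2b), was called in replicate 2 of proximal WENR-plus (fold 5.64) and replicate 1 of proximal WENR-minus (fold 5.91). The −6.02 kb window held no Cdx2 motif and the letters AGATAA of a GATA motif on the minus strand at 2 places, a motif in 9.95% of all regions. The −3.49 kb window held TTTATGG, 6 bp from the median of the summits of its 2 libraries. A Cdx2 motif was within 50 bp of the library's own summit in 1 of these 2.

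The windows of the ligand region pair are shown with those of the best region of Slc9a3 and its neighbour, of Pde5a and of an intron of Gucy2c, because they differ in whether they hold the motif. Capitals again mark the Cdx2 motif, and windows without capitals hold none.
Guca2a −6.02 kb, chr4:119631636-119631736: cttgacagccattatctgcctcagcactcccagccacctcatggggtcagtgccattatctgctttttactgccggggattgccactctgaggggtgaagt
Guca2a −3.49 kb, chr4:119634160-119634260: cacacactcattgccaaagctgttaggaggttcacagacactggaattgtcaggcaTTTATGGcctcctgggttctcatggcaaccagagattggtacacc
Gucy2c +72.7 kb, chr6:136708986-136709086: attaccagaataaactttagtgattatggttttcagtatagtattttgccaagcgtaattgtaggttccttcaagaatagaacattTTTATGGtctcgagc
Slc9a3 −22.0 kb, chr13:74099422-74099522: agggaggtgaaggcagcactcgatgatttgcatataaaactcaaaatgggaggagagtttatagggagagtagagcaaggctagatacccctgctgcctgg
Slc9a3 −19.2 kb, chr13:74102222-74102322: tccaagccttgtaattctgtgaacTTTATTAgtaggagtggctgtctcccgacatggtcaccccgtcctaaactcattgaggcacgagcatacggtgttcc
Pde5a +3.30 kb, chr3:122732200-122732300: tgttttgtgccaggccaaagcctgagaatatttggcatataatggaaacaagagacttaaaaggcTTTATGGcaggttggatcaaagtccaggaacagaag

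The receptor gene Gucy2c (chr6:136697284-136781765, minus strand) had the one region at a gene start that every library shared. The Gucy2c −0.133 kb region (chr6:136781539-136782306) had a summit 133 bp upstream of the annotated start. Its fold was 12.4, 14.4 and 16.4 in proximal WENR-plus, 14.2, 12.4 and 13.3 in proximal WENR-minus. It was 10.6, 18.7 and 10.8 in distal WENR-plus and 10.5, 7.89 and 8.39 in distal WENR-minus. Within the lists these folds stood at the 80.1th to the 98.8th percentile. As deposited, the folds of 3 groups overlapped and those of distal WENR-minus were below all others, 10.5 against 10.6 at the closest. As log2 fold centred on the median of each library, distal WENR-minus (0.17, 0 and −0.06) overlapped proximal WENR-plus (0.02, 0.13 and 0.49). By its mean percentile the region ranked 473 of the 2079 regions called in all 12 libraries.

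Inside and beyond Gucy2c, the Gucy2c +72.7 kb region in intron 22 and the Gucy2c +132 kb region had a peak in each of the 6 proximal and in no distal library. The fold at +72.7 kb was 10.8, 7.89 and 10.9 in proximal WENR-plus and 6.45, 6.37 and 8.54 in proximal WENR-minus, and its window held TTTATGG. At +132 kb, 47.6 kb past the end of the gene and nearest to the start of Plbd1, the fold was 6.80, 7.52 and 7.44 in proximal WENR-plus and 7.52, 7.31 and 6.24 in proximal WENR-minus. In lists of equal length both were left in 3 proximal libraries. The Gucy2c −11.0 kb region was the one region of the 75 called in all 3 WENR-plus and no WENR-minus libraries of the proximal site (background 0.74%). It was also called in all 3 distal WENR-plus libraries and in replicate 3 of distal WENR-minus. Its fold was 6.02, 3.81 and 9.39 in proximal WENR-plus, 5.73, 7.11 and 5.97 in distal WENR-plus and 4.19 in the distal WENR-minus library. This WENR-minus value, from 1 library, was below all 3 of distal WENR-plus and above only the lowest of proximal WENR-plus.

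The kinase gene Prkg2 (chr5:98929773-99037351, minus strand) held the highest fold of all 75 regions in every library. The Prkg2 +26.7 kb region (chr5:99009807-99011677), in intron 2, had a fold of 51.3, 50.8 and 76.3 in proximal WENR-plus and 36.8, 46.3 and 55.9 in proximal WENR-minus. The distal WENR-plus folds were 24.7, 29.8 and 29.9 and those of distal WENR-minus 35.2, 25.6 and 37.0. It stood at the 99.7th percentile of the list or above in all 12 libraries, and its fold ranked between 1 and 75 among all peaks of a list. By mean percentile it was number 3 of 2079. The distal values reached 37.0 and the lowest proximal value was 36.8, so the sites overlapped by a narrow margin on this scale.

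The other shared region of Prkg2, at +90.9 kb in intron 15 (chr5:98946002-98946979), lay 2653 bp from the start of a shorter transcript. Its fold was 10.8, 9.41 and 10.2 in proximal WENR-plus, 15.6, 13.8 and 11.1 in proximal WENR-minus. It was 4.85, 6.88 and 5.12 in distal WENR-plus and 4.77, 6.70 and 6.40 in distal WENR-minus. All 6 proximal folds were above all 6 distal folds. Between these regions lay the Prkg2 +75.9 kb and +82.7 kb regions in intron 14, called in 11 and 10 libraries. Each was missing from distal lists only, +75.9 kb from replicate 3 of distal WENR-plus and +82.7 kb from replicates 1 and 3 of that group. The region nearest to a start site of Prkg2, at +69.0 kb and 1603 bp from the start of a shorter transcript, was called in 3 proximal libraries.

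Cftr, the chloride channel gene (chr6:18170687-18322768, plus strand), had regions along the whole gene body but none in the 50 kb upstream. The first region from the 5′ end was 9.15 kb inside the gene and was called in 1 library. Cftr +78.0 kb in intron 11 (chr6:18247627-18250230) had a fold of 22.5, 16.0 and 24.7 in proximal WENR-plus and 22.8, 14.9 and 21.1 in proximal WENR-minus. The distal WENR-plus folds were 7.43, 17.3 and 12.4 and those of distal WENR-minus 8.39, 6.12 and 10.9. This region joins 2 summits, the second 1.31 kb to the right of the median summit and called in 11 libraries. The values given are from the first summit, called in all 12, except in replicate 3 of distal WENR-minus, where the second summit was stronger and the first had a fold of 8.44. As deposited, replicate 2 of distal WENR-plus lay among the proximal values, and the other distal values were below all of them. On the centred log2 scale, replicate 3 of distal WENR-plus (0.54) and of distal WENR-minus (0.31) were also above the lowest proximal value (0.28).

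Cftr +53.7 kb in intron 7 (chr6:18224077-18224818) had a fold of 13.9, 15.4 and 11.0 in proximal WENR-plus, 8.87, 7.08 and 8.52 in proximal WENR-minus. It was 7.05, 10.2 and 5.55 in distal WENR-plus and 7.1, 7.89 and 6.99 in distal WENR-minus. As deposited, the proximal WENR-plus values were the highest and the other groups overlapped. On the centred log2 scale the lowest proximal WENR-plus value (−0.10) was below the highest of distal WENR-plus (−0.01) and of distal WENR-minus (0). Cftr +71.4 kb, also in intron 11, was called in 11 libraries and was missing from replicate 2 of proximal WENR-minus. Its fold was 4.60, 5.96 and 5.46 in proximal WENR-plus, 5.64 and 5.18 in the 2 other proximal lists, 5.42, 14.7 and 7.25 in distal WENR-plus and 8.07, 5.52 and 8.82 in distal WENR-minus. In lists of equal length this region was called in all 6 distal and no proximal libraries. Its window held an AP-1 motif (TGACTCA), which 3.84% of all regions hold, besides the Cdx2 motif.

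Cftr +133 kb in intron 22 and Cftr +180 kb, past the end of the gene and nearest to the start of Cttnbp2, had a peak in each of the 6 proximal libraries and in no distal one. The fold at +133 kb was 5.70, 6.90 and 7.05 in proximal WENR-plus and 5.10, 3.65 and 4.93 in proximal WENR-minus. At +180 kb it was 5.07, 5.96 and 7.71 in proximal WENR-plus and 7.79, 4.95 and 3.62 in proximal WENR-minus. Within the proximal lists the fold ranged from the 1.57th to the 76.7th percentile at +133 kb and from the 2.34th to the 82.7th at +180 kb. Neither window held a Cdx2 motif, though a motif lay within 50 bp of the library's own summit in 2 libraries at +133 kb and 1 at +180 kb. In lists of equal length +133 kb was left in 1 proximal library and +180 kb in 2. The Cftr region nearest to a start site, at +84.3 kb and 271 bp from the start of a transcript that begins inside the gene, was called in 4 proximal libraries, with a fold of 4.44, 3.81 and 6.65 in proximal WENR-plus and 5.18 in replicate 3 of proximal WENR-minus.

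The exchanger gene Slc9a3 (chr13:74121457-74169442, plus strand) had no region in its body or within 3 kb of a start site. The Slc9a3 −22.0 kb region was called in 10 libraries. Its fold was 5.70, 8.46 and 11.4 in proximal WENR-plus, 9.98, 8.84 and 11.8 in proximal WENR-minus, 6.58 in replicate 2 of distal WENR-plus and 8.39, 8.68 and 13.3 in distal WENR-minus. The values of the 2 sites overlapped, and the 2 libraries without the region were the shortest lists, replicates 1 and 3 of distal WENR-plus. Its window held no Cdx2 motif, though a motif lay within 50 bp of the library's own summit in 3 of the 10 libraries. The Slc9a3 −19.2 kb region was called in 9 libraries and its window holds TTTATTA, with a motif at the library's own summit in 7 of them. The nearest region, 8.02 kb upstream, was called in replicate 3 of distal WENR-minus alone (fold 4.86).

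Pde5a (chr3:122728947-122859374, plus strand), the phosphodiesterase gene, had 3 intronic regions called in 9 or more libraries. Pde5a +3.30 kb in intron 1, 2.03 kb from the nearest start site, was called in 11. Its fold was 7.92, 6.58 and 7.83 in proximal WENR-plus, 6.45, 4.95 and 5.18 in proximal WENR-minus. It was 6.17, 8.44 and 8.11 in distal WENR-plus and 4.84 and 3.82 in replicates 1 and 2 of distal WENR-minus. Within each site the WENR-plus folds, as deposited, were above the WENR-minus folds, and this region was not tested because 1 list lacks it. As percentiles within the lists, the media overlapped in proximal, with replicate 1 of WENR-minus at 73.4 and replicate 3 of WENR-plus at 67.9. In distal they did not overlap, with WENR-plus at 45.2, 80.2 and 71.9 and WENR-minus at 36.6 and 2.44. The window was the only one of the 75 with an HNF4 motif (CAAAGTCCA or CAAAGGTCA), which 1.49% of all regions hold, and it also held TTTATGG. The regions past the 3′ end of Pde5a had Fabp2 as the nearest protein-coding start. Among them, Pde5a +156 kb was the one region of the 75 called in all 3 WENR-minus and no WENR-plus libraries of the distal site (background 0.41%). In proximal libraries it was called in 2 WENR-plus and 3 WENR-minus lists.

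**Figure D3:**
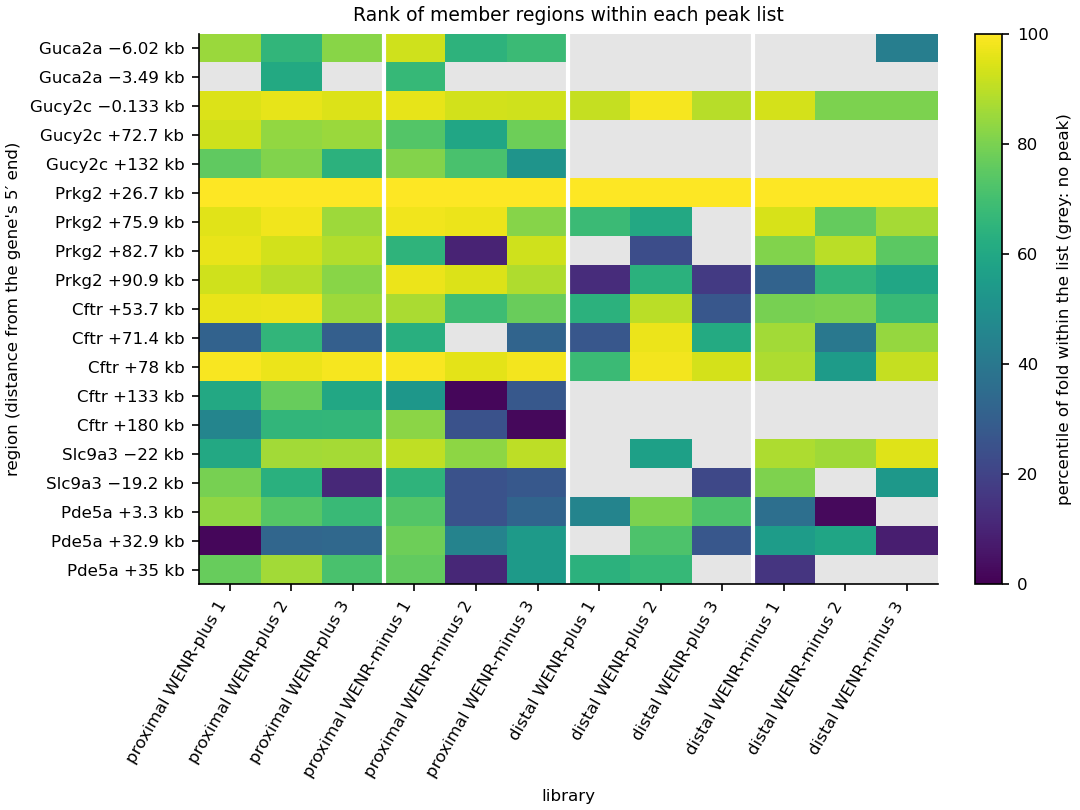
Percentile of the fold of each region within its own list (colour, 0 to 100; grey, no peak) for 19 regions (rows, named by distance from the gene's 5′ end) in the 12 libraries (columns). Prkg2 +26.7 kb is at the 99.7th percentile or above throughout, Gucy2c −0.133 kb between the 80.1th and the 98.8th, and 4 regions of Gucy2c and Cftr are coloured in all 6 proximal and grey in all 6 distal libraries.

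Counted over the 75 regions, those called in every library of 1 site and in none of the other were all proximal. The 4 regions of Gucy2c and Cftr given above (5.33%) had a peak in every proximal and no distal library, against 1.04% of all regions, and 0 had one in every distal and no proximal library, against 0.0553%. Within WENR-plus medium, 10 regions (13.3%) had a peak in all 3 proximal and no distal libraries, against 4.69%. Within WENR-minus medium there were 7 (9.33%), against 2.04%. The 3 proximal shares were above their background, and all of these counts rest on which peaks passed the threshold in lists of unequal length. At a −log10 q of at least 5 the count of 4 fell to 2, and in lists of equal length it was 0.

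At regions that every list held, the fold itself could be compared between groups. Of the 75 regions, 5 passed this filter, and the fit ran over all 2079 such regions, with log2 fold centred on the median of each library. The fold was higher in proximal than distal organoids at Prkg2 +90.9 kb and at Cftr +78.0 kb, 2 of the 5 regions. Of all regions tested, 9.28% were higher in proximal and 7.65% higher in distal at an adjusted p under 0.05 (limma, Benjamini-Hochberg). No region of the 5 was lower in proximal past the threshold.

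At Prkg2 +90.9 kb the centred log2 fold was 0.02 ± 0.37 in proximal and −0.61 ± 0.26 in distal libraries (SD, n = 6). These are libraries of 3 lines per site, and the fit took the libraries of a line as independent. The difference was 0.64 ± 0.16 (SE), with an adjusted p of 0.0119 (limma). The centred values of the sites overlapped, since proximal WENR-plus ranged from −0.49 to −0.18 and distal WENR-minus from −0.97 to −0.23. Without replicate 1 the difference was 0.48 (adjusted p = 0.193) and without replicate 2 it was 0.75 (adjusted p = 0.0679), so the call was lost in both cases. Fewer libraries entered these fits, and the calls over all regions fell from 352 to 102 and 42. At Cftr +78.0 kb the centred log2 fold was 0.80 ± 0.31 in proximal and 0.16 ± 0.44 in distal libraries, a difference of 0.64 ± 0.20 (SE, adjusted p = 0.0341). This call was lost when replicate 1, 2 or 3 was left out, with differences of 0.45, 0.84 and 0.64 (adjusted p = 0.349, 0.0652 and 0.064), and on the percentile scale (adjusted p = 0.244). With single summits in place of merged regions, a fit over 2004 summits which was added after the data were seen, the difference was 0.68 ± 0.19 (adjusted p = 0.0198).

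The other 3 regions did not pass the threshold for site. Prkg2 +26.7 kb had a centred log2 fold of 2.17 ± 0.39 in proximal and 1.78 ± 0.20 in distal libraries, a difference of 0.39 ± 0.18 (SE, adjusted p = 0.162). Cftr +53.7 kb differed by 0.11 ± 0.16 (adjusted p = 0.682) and Gucy2c −0.133 kb by −0.02 ± 0.15 (adjusted p = 0.951). The sign at the Gucy2c start turned on the percentile scale and without replicate 1 or 2. Compared as percentiles of lists of unequal length, 49 of the 51 regions called over the genome were higher in proximal (96.1%), against 193 of 352 (54.8%) on the centred log2 scale.

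**Figure D4:**
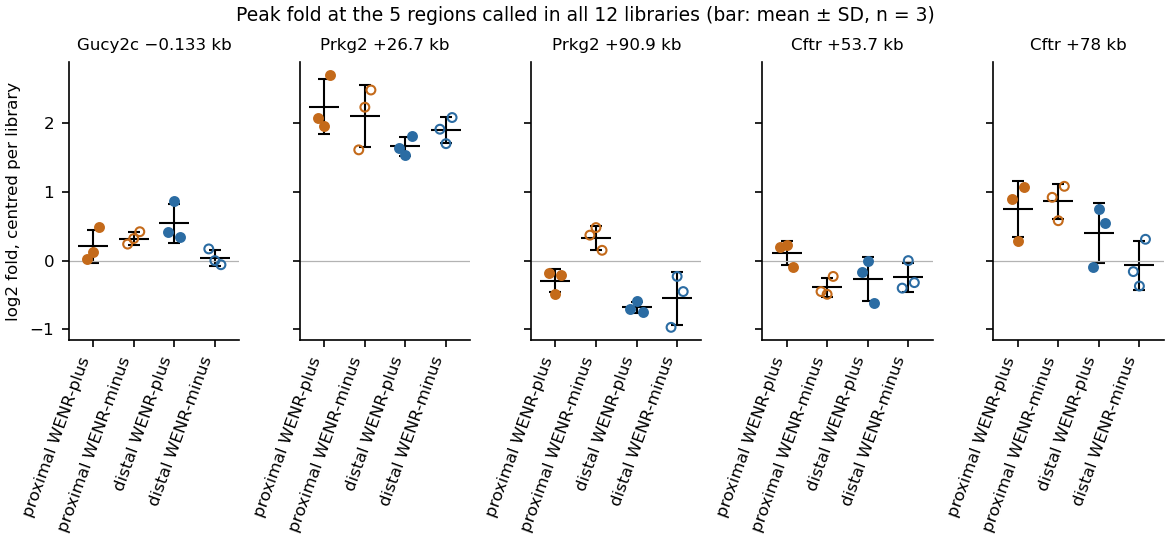
Log2 fold, centred on the median of each library, at the 5 regions called in all 12 libraries (panels) for each library (points; filled WENR-plus, open WENR-minus) by group, with the group mean ± SD (n = 3). Prkg2 +26.7 kb lies between 1.53 and 2.70 in all libraries, and at Prkg2 +90.9 kb the distal libraries lie between −0.97 and −0.23.

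Between media, 0 of the 5 regions passed the threshold (limma), and 1 had an unadjusted p under 0.05. Over all 2079 regions, 0.192% were higher in WENR-plus and 0.577% higher in WENR-minus. The 1 region was Prkg2 +90.9 kb, with a WENR-plus minus WENR-minus difference of −0.37 ± 0.16 (SE, adjusted p = 0.28). In proximal organoids its centred log2 fold was −0.18, −0.49 and −0.21 in WENR-plus and 0.37, 0.48 and 0.15 in WENR-minus, without overlap, while in distal organoids the values of the media overlapped. The medium effect in proximal minus that in distal was −0.50 ± 0.32 (SE, adjusted p = 0.998), so a difference between the sites was not shown. The differences at the other 4 regions were between −0.05 and 0.23, with adjusted p from 0.542 to 0.954.

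Among 37 other genes of cyclic GMP signalling and intestinal salt transport, 9 (24.3%) had a region called in all 12 libraries in the gene or its 50 kb flanks, against the 12.9% of protein-coding genes given above, and 3 (8.11%) had one within 3 kb of a start site, against 1.34%. These were Pde9a, Pde6a and Slc26a3. Pde9a, a cyclic GMP phosphodiesterase, had a region 75 bp from a start site at a median percentile of 93.2. Pde6a, the phosphodiesterase subunit known from rod photoreceptors, had one 1402 bp from a start site at 93.7. Slc26a3, the chloride-bicarbonate exchanger of the colon, had one 145 bp from a start site at 70.4. For Pde9a and Slc26a3 that start site lies inside the annotated gene, away from its 5′ end. The shares of these other genes were not matched for gene length. Of the natriuretic peptide genes and their receptors, Nppa, Nppb, Nppc, Npr1, Npr2 and Npr3, none had a region within 3 kb of a start site in any library, nor did Prkg1, the other cyclic GMP-dependent protein kinase gene. Over all protein-coding genes 22.7% had such a region, so most genes have none.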

How the data were processed

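Per the study's methods, with versions from the submitters' processing notes (the study's supplement lists other versions of Bowtie2 and SAMtools), the authors trimmed reads (Trimmomatic 0.39), aligned them to mm10 (Bowtie2 2.4.5), removed duplicates (SAMtools 1.13) and called peaks per library against the matched input (MACS2 2.2.7.1, q-value of 0.01). The deposited lists give a score, the fold (a ratio of pileup to input background), and, for the summit, −log10 q and −log10 p; the score was not used.

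The members and lists were chosen with earlier results of these data known. Peaks of the 12 lists on chromosomes 1 to 19, X and Y that overlapped by at least 1 bp made a region, a library had a region where it had a peak, and the peak of highest −log10 p gave its fold. Positions are 1-based and were annotated with GENCODE vM21 (introns of the protein-coding transcript with most exons, start sites of all transcripts). Percentiles are mid-ranks of the fold within a list. limma 3.58.1 (R 4.3.3), with site, medium and their interaction as terms, was tested on simulated data first. The simulation drew every library independently, so it could not test the effect of libraries that share a line. P-values measure the spread between libraries of 3 cultures per group, and Wilson intervals cover counting error only. In the limma fit, the WENR-plus and WENR-minus libraries of a line counted as independent. Its site p-values and SEs therefore rest on libraries and not on lines. The text names every region called in all 12 libraries or in all libraries of 1 site alone, and for each member the region nearest to a start site and the one in most libraries (on a tie, as for Pde5a, that of higher median percentile), and the pathway genes with a region in all 12 libraries within 3 kb of a start site; the Gucy2c −11.0 kb, Prkg2 +75.9 and +82.7 kb, Cftr +9.15 and +71.4 kb, Slc9a3 −19.2 kb and Pde5a +156 kb regions, Prkg1 and the natriuretic peptide genes were added after their values were seen. Input reads and read counts per region were not analysed here.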

Additional observations from a re-analysis of the deposited data

How the results depend on the processing

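Cut to a fold of at least 5, to lists of equal length or to flanks of 10 kb, the 75 regions became 47, 31 and 45. The 4 regions called in all proximal and no distal libraries became 2 at a −log10 q of at least 5, 2 at a fold of at least 5 and 0 in lists of equal length, where 1 region (Cftr +71.4 kb) was called in all distal and no proximal libraries; leaving out 1 replicate number gave 4 to 8. Leaving out 1 replicate number gave 6 to 8 regions in all libraries left, against 5. The members with a region near a start site fell from 4 to 2 at 1 kb. The share with a Cdx2 motif was 78.7% within 100 bp, against 80.2% of all regions. The difference in share between sites turned to −0.0266 with flanks of 10 kb and −0.0638 with 100 kb and ran from −0.0734 to 0.419 without 1 replicate number; that between media turned to 0.0594 in lists of equal length.

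Of the 2 regions higher in proximal, 1 stayed on the percentile scale and 0 to 1 without 1 replicate number, where fewer libraries entered. With single summits in place of merged regions, an alternative added after the data were seen, both calls and every direction at the 5 regions were as before. The Gucy2c start turned to 5.74 percentile points, and ran from −0.18 to 0.07 (log2) without 1 replicate number, above 0 without replicate 1 (0.05) and 2 (0.07). Between media, Prkg2 +26.7 kb ran from −0.13 to 0.04 without 1 replicate number and Cftr +53.7 kb to −0.15 percentile points. Over all regions, the 352 calls between sites were 51 as percentiles and 102, 42 and 331 without replicate 1, 2 and 3; the 16 between media were 6 as percentiles, 42 on the −log10 p scale, and 0, 0 and 4 without replicate 1, 2 and 3. For causes other than the smaller number of libraries or peaks, the cause was not tested.

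In the main limma fit, in the test of the share between media and across sites, the replicate numbers were not taken to pair the libraries. In the test of the share between sites, the 2 media of a number at 1 site were averaged as a line. Deviations correlated above 0.1 in 5 of 6 same-numbered pairs of 1 site and 8 of 12 across sites, and 8 of 12 libraries correlated best with their own number. With the replicate block, 2 regions were higher in proximal and 0 differed between media. The 2 were Prkg2 +90.9 kb and Cftr +78.0 kb, with an adjusted p of 0.00507 and 0.0089 (limma). All regions called rose to 470 between sites and 79 between media. The share differences kept their size (0.153 and −0.25, exact paired test, p = 0.75 and 0.25).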
